A study of Mus musculus with 9 samples.

Results

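The red cell transcripts described here are those of 8 genes, Hba-a1, Hba-a2, Hbb-bs, Hbb-bt, Alas2, Slc4a1, Bpgm and Tent5c, out of 53801 genes listed, 25402 of which had a count in at least 1 library. They were chosen by name, with their measured levels in these libraries already known, as a readout of red cell precursor RNA. Their levels and differences are therefore given as a description, with no test. All 8 were found by their Ensembl identifiers, and all 8 passed the filter on low counts in each comparison.

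The 9 libraries hold RNA of monocytes and macrophages from male C57BL/6J mice, 9 weeks of age. The sorting gate took cells with CD11b and high CD45 and without CD11c or Ly6G. Sham blood (3 libraries) came from sham-operated mice, on a day that is not given in the sources used here. Stroke blood (3 libraries) and stroke brain (3 libraries) came from mice 5 days after the left distal middle cerebral artery and the left common carotid artery had been permanently occluded. A blood library holds the cells of 1 mouse and a brain library those of a pool of 5 mice.

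Blood was separated on Ficoll before staining, and brain cells on Percoll, from the hemisphere of the stroke after perfusion with saline. Library totals were between 18475118 and 22623578 counts. Levels are CPM, counts scaled by the library total, means are given ± SD with n = 3, and 3 counts, the floor set for a count of 0, were 0.133 to 0.162 CPM. This floor is approximate and a true level can lie above it. Differences given as at least a certain fold hold against the floor only. Of the gate's own genes, Itgam, which encodes CD11b, was between 144 and 215 CPM, Ptprc, which encodes CD45, between 997 and 1695 CPM, and Ly6g at most 0.756 CPM. Itgax, which encodes CD11c, was between 9.68 and 19.4 CPM in blood and reached 141, 78.9 and 85.6 CPM in stroke brain 1, 2 and 3, although the gate left out cells with CD11c. The gate reads protein by antibody and these values are RNA, so they do not show how well the gate held.

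Red cells arise from nucleated erythroblasts, which fill with hemoglobin, lose their nucleus and enter the blood as reticulocytes, young red cells that still carry messenger RNA. Hemoglobin is built from alpha chains and beta chains, each holding a heme, and heme synthesis in these cells starts with ALAS2 in the mitochondrion. Cells of this lineage carry a membrane and skeleton of their own, and macrophages take up worn red cells and recycle the iron of their heme.

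Sham blood 1 stood apart from the other 5 blood libraries in red cell RNA. The 4 globin genes together took 0.117% of its counts, against 3.24% and 2.88% in sham blood 2 and 3 and 1.42%, 1.32% and 1.79% in stroke blood 1, 2 and 3. Sham blood 1 was thus 11.3-fold below the lowest other blood library and 15.3-fold below the median of the other 5, though still 89.2-fold above the highest brain library. All 8 genes were lower in sham blood 1 than in any other blood library, at a median of 7.18% of the median of the other 5, from 5.81% for Hbb-bt to 10.2% for Bpgm. The main results that rest on sham blood are given with and without this library, a choice made after seeing the data.

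The same library was low in other red cell genes and in platelet genes, but not in monocyte genes. Of 61 red cell genes in 5 lists outside the 8, 60 were matched by name, and 38 had a median of at least 1 CPM in the other 5 blood libraries; 25 of these were below all 5 in sham blood 1, where 19.3% of all 11159 such genes were. By list this held for 8 of 8 genes of the red cell membrane and skeleton (median 9.16% of the level elsewhere), 9 of 10 of reticulocyte maturation and red cell enzymes (41.1%), 2 of 2 other globin genes (23.1%), 4 of 11 of heme synthesis (84.2%) and 2 of 7 of the erythroid transcription factors (73.2%). All 12 genes of a platelet and megakaryocyte list were below the other 5 libraries, at a median of 4.81%, and the list summed to 24.8 CPM in sham blood 1, 596 and 855 CPM in sham blood 2 and 3, and 419, 510.1 and 397 CPM in stroke blood 1, 2 and 3. Its most abundant gene in these libraries was Ppbp, at 5.50, 141 and 199 CPM in sham blood and 95.7, 112 and 96.4 CPM in stroke blood, and no gene of the list was at 0 in sham blood 1. None of 8 monocyte and macrophage genes was below the other 5, and their median was 109%. The part of platelets in the level of sham blood 1 was not tested.

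**Figure D1:**
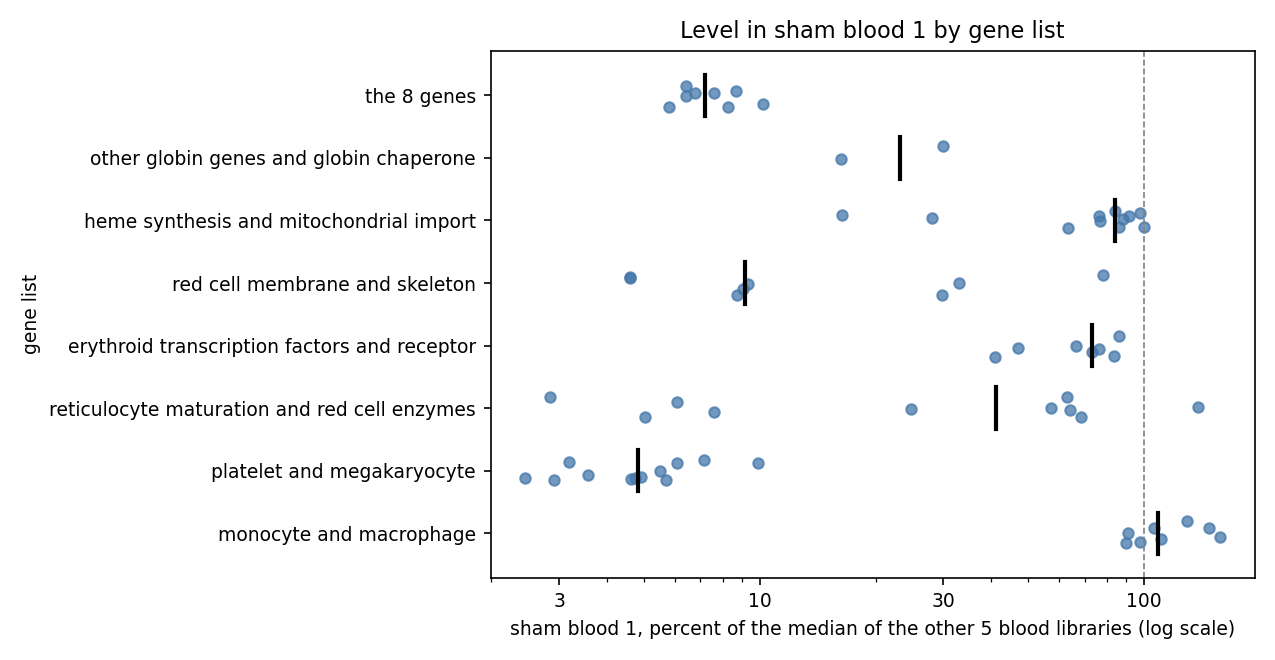
Level of each gene in sham blood 1 as a percent of its median in the other 5 blood libraries (horizontal log axis), by gene list (vertical axis); each point is 1 gene with a median of at least 1 CPM, the black bar is the median of the list and the dashed line marks 100%. The 8 genes lie between 5.81% and 10.2%, the 12 platelet genes have a median of 4.81% and the 8 monocyte and macrophage genes one of 109%.

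Hba-a1 and Hba-a2 encode the alpha chain of adult hemoglobin and lie on chromosome 11 (GRCm38), from 32283511 to 32284465 and from 32296489 to 32297298. Hbb-bs and Hbb-bt encode the beta chain and lie on chromosome 7, from 103826534 to 103828096 and from 103812524 to 103813996, on the reverse strand. Within each pair the transcripts share long stretches: 81.0% of all 75-base windows of the Hba-a2 transcript are found in Hba-a1 and 62.2% the other way, and 64.3% of those of Hbb-bs in Hbb-bt and 56.6% the other way. Reads that fit both copies could have been divided between them or left out in the counting. How they were treated is not given in the sources used here. The separate value of each of these 4 genes is therefore uncertain, and the sum of a pair would be too low if such reads were left out.

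All 8 genes moved together over the blood libraries, so this did not set the globin genes or Alas2 apart. The promoters of Hba-a2 and Hbb-bs are shown as a description of their sequence. They are the 250 bases before the start site of RefSeq's annotation of GRCm38.p6, 5′ to 3′ on the strand of the gene. Capitals mark, on either strand, GATAA (the core of the GATA1 motif), CACCC (the core of the KLF1 motif), CCAAT and TATAA.
Hba-a2: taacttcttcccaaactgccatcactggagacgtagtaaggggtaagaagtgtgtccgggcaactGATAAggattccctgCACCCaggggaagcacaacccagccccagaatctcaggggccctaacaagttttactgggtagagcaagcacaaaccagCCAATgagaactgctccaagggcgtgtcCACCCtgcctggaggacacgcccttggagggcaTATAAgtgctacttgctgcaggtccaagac
Hbb-bs: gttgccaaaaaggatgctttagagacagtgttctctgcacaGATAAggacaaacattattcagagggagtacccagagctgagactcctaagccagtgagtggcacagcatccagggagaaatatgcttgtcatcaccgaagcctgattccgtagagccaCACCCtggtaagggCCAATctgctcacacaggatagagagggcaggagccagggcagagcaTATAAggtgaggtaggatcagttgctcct
The first is chr11:32296242-32296491, forward strand, of which 3 bases lie in exons of GENCODE M21, and the second chr7:103827929-103828178, reverse strand, with 85 such bases. Hba-a1 shares a run of 247 bases with the sequence of Hba-a2, whereas the longest run that Hbb-bs and Hbb-bt share is 14 bases. All 4 globin promoters held all 4 motifs. Of 32851 promoters of this length, 22.6% held GATAA, 52.0% CACCC, 33.8% CCAAT, 22.8% TATAA and 0.968% all 4. A match of letters is a description of the sequence and not a bound site.

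Hbb-bs, the first of the beta globin genes, was at 531, 15406 and 15525 CPM in sham blood 1, 2 and 3, 6333, 6366 and 8261 CPM in stroke blood and 2.29, 4.55 and 4.86 CPM in stroke brain. Hbb-bt was at 134, 3234 and 2996 CPM in sham blood, 1734, 1473 and 2303 CPM in stroke blood and 0.213, 0.442 and 0.509 CPM in stroke brain. Both beta globin genes were high in sham blood 2 and 3, intermediate in stroke blood, low in sham blood 1 and lowest in the brain, with no overlap of blood and brain.

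Hba-a1 was at 343, 10479 and 7628 CPM in sham blood, 4355, 3779 and 5357 CPM in stroke blood and 1.28, 3.80 and 6.15 CPM in stroke brain. For Hba-a2 the levels were 164, 3287 and 2704 CPM in sham blood, 1802, 1585 and 1991 CPM in stroke blood and 0.373, 1.50 and 1.62 CPM in stroke brain. The alpha globin genes kept the order of the beta genes, with no overlap of either blood group and the brain and with stroke blood between sham blood 1 and the other two sham libraries.

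From stroke blood to stroke brain the mean level dropped 1791-fold for Hbb-bs (6987 ± 1104 to 3.90 ± 1.40 CPM), 4733-fold for Hbb-bt (1837 ± 425 to 0.388 ± 0.155 CPM), 1201-fold for Hba-a1 (4497 ± 799 to 3.74 ± 2.44 CPM) and 1539-fold for Hba-a2 (1793 ± 203 to 1.17 ± 0.688 CPM). Against sham blood the brain was lower 2688-fold, 5466-fold, 1642-fold and 1761-fold in the same order of genes, and 3964-fold, 8026-fold, 2418-fold and 2571-fold without sham blood 1. Without sham blood 2 that of Hba-a1 was 1064-fold. Both comparisons use the same brain libraries. In bulk RNA, fewer cells of a type and less RNA per cell cannot be told apart.

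Globin RNA was still counted in every brain library. The 4 genes had 78, 233 and 284 counts in stroke brain 1, 2 and 3, or 4.16, 10.3 and 13.1 CPM, a 3.16-fold range within the group. These counts were well above the floor of 3 counts, which covers counting error only. Globin counts were thus low in the brain libraries but not absent, and their source was not tested.

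**Figure D2:**
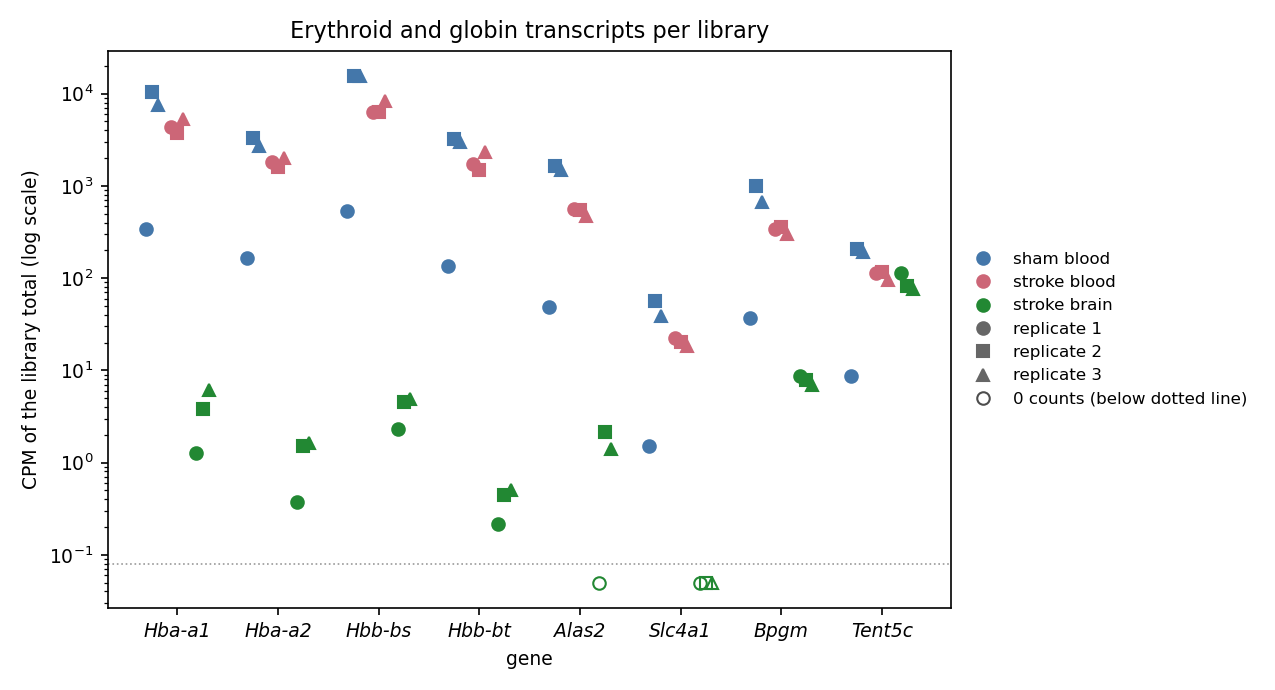
Level of each of the 8 genes (horizontal axis) in CPM on a log axis (vertical), 1 point per library, coloured by group and shaped by replicate; open points below the dotted line are counts of 0. For 7 genes the brain points lie below all blood points, while the Tent5c points of the brain, at 77.1 to 115 CPM, overlap those of stroke blood. The share of all genes with brain below all blood libraries was not computed.

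Alas2 encodes the erythroid form of the enzyme of the first step of heme synthesis, on the X chromosome from 150547375 to 150570638. Its promoter is shown because it shares part of the motifs of the globin promoters.
Alas2: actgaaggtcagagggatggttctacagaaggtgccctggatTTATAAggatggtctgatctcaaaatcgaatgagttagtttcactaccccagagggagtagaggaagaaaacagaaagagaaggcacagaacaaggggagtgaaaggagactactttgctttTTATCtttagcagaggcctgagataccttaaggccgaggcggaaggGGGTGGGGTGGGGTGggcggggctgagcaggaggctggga
This is chrX:150547167-150547416, forward strand, with 42 bases in exons of GENCODE M21. It holds GATAA once and CACCC at 3 places, all on the reverse strand, and TATAA at 2 places that overlap by 4 bases in a palindrome; CCAAT is not in this window. GATAA and CACCC together were in 10.1% of all promoters. Exons of Alas2 and Apex2 overlap on opposite strands over 372 bases, and the strand setting of the counting is not given in the sources used here, so some of its counts may belong to Apex2.

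Alas2 was at 48.1, 1649.9 and 1497 CPM in sham blood, 556, 543 and 477 CPM in stroke blood and 0, 2.12 and 1.39 CPM in stroke brain. It was high in sham blood 2 and 3, and no brain library overlapped a blood library. The mean in stroke blood (526 ± 42.4 CPM) was 449-fold that in the brain (1.17 ± 1.08 CPM), and the sham blood mean 910.3-fold, or 1345-fold without sham blood 1. Against stroke blood the difference was 299.6-fold without stroke brain 1, which has no count, and 757-fold without stroke brain 2, where that against sham blood was 1534-fold.

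Slc4a1 encodes band 3, the anion exchanger that is the main protein of the red cell membrane, on chromosome 11 from 102348824 to 102366203. It was at 1.51, 57.1 and 38.8 CPM in sham blood and 22.3, 20.5 and 18.5 CPM in stroke blood, and had no count in any brain library. Against a floor of 3 counts per brain library, the level in the brain was lower than that in stroke blood by at least 142-fold and than that in sham blood by at least 226-fold, or 334-fold without sham blood 1 and 140.2-fold without sham blood 2.

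Bpgm encodes the enzyme that makes 2,3-bisphosphoglycerate, which lowers the oxygen affinity of hemoglobin, on chromosome 6 from 34476207 to 34505613. Its levels were 36.8, 992 and 669.7 CPM in sham blood, 341, 361 and 302 CPM in stroke blood and 8.69, 7.91 and 6.94 CPM in stroke brain. The brain libraries stood below all blood libraries but close to one another, unlike those of the globin genes. Stroke blood (334 ± 29.9 CPM) was 42.6-fold above the brain (7.85 ± 0.877 CPM), and sham blood 72.2-fold above it, or 106-fold without sham blood 1 and 45.0-fold without sham blood 2.

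Tent5c encodes a poly(A) polymerase that lengthens the tails of messenger RNAs and is not limited to red cells, and it lies on chromosome 3 from 100451628 to 100489324. It was at 8.76, 205 and 193 CPM in sham blood, 115, 115 and 96.2 CPM in stroke blood and 115, 82.4 and 77.1 CPM in stroke brain. Stroke brain and stroke blood overlapped (91.4 ± 20.2 against 109 ± 10.8 CPM, a 1.19-fold difference), so that Tent5c was the 1 gene of the 8 with no separation of these groups. How many of all genes separate these groups was not computed. The brain was 1.48-fold lower than sham blood, with overlap, and 2.18-fold lower without sham blood 1, with none. Over the blood libraries, however, Tent5c followed the other 7 genes. The promoters of Bpgm and Tent5c held CCAAT, at 3 places and 1 place, and none of the other 3 motifs.

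Per kilobase of exon, the mean levels in stroke blood were 9097 ± 1437 CPM per kb for Hbb-bs, 5538 ± 984 for Hba-a1, 2688 ± 304 for Hba-a2, 2613 ± 604 for Hbb-bt, 219 ± 17.6 for Alas2, 93.2 ± 8.35 for Bpgm, 17.8 ± 1.77 for Tent5c and 4.17 ± 0.392 for Slc4a1. Only Hba-a2 and Hbb-bt overlapped among neighbours in this order. In stroke brain the order was another one, with Tent5c first at 15.0 ± 3.32 CPM per kb, ahead of Hbb-bs (5.08 ± 1.82), Hba-a1 (4.61 ± 3.00), Bpgm (2.19 ± 0.244), Hba-a2 (1.75 ± 1.03), Hbb-bt (0.552 ± 0.221), Alas2 (0.487 ± 0.448) and Slc4a1 (0).

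The make-up of the globin counts varied far less in blood than their level did, though by more than counting error. Alpha globin was 43.3%, 42.5% and 35.8% of the globin counts in sham blood 1, 2 and 3 and 43.3%, 40.6% and 41.0% in stroke blood 1, 2 and 3. Hba-a1 was between 67.7% (sham blood 1) and 76.1% (sham blood 2) of alpha globin, and Hbb-bs between 78.2% (stroke blood 3) and 83.8% (sham blood 3) of beta globin. The shares within a pair, in blood and brain, depend on how reads that fit both copies were treated. Sham blood 1, with its far lower globin level, was highest in its alpha share, level with stroke blood 1 to the digits given, lowest in the share of Hba-a1 and among the others in the share of Hbb-bs.

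In the brain the alpha share was 39.7% (95% Wilson interval 29.6 to 50.8%), 51.5% (45.1 to 57.8%) and 59.2% (53.4 to 64.7%) in stroke brain 1, 2 and 3. Stroke brain 1 was within counting error of the blood libraries, and stroke brain 2 and 3 were above all of them. Hbb-bs was 91.5% (80.1 to 96.6%), 91.2% (84.5 to 95.1%) and 90.5% (83.8 to 94.6%) of beta globin, above each blood library in its point value, with lower bounds that reached the blood range in stroke brain 1 and 3. The libraries were amplified by PCR without molecular identifiers, so these intervals and the floor of 3 counts cover counting error only.

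**Figure D3:**
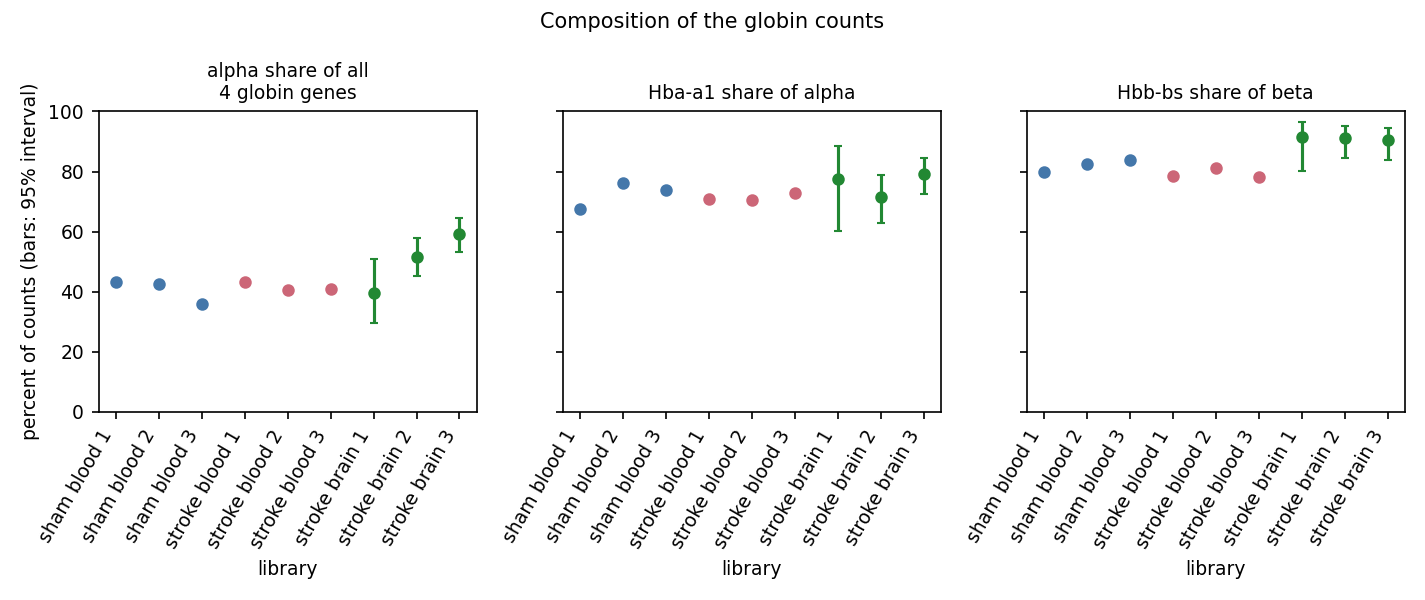
Share of counts in each of the 9 libraries (horizontal axis), in percent (vertical), for alpha globin among all 4 globin genes, Hba-a1 among alpha and Hbb-bs among beta globin; points are libraries coloured by group and bars are 95% Wilson intervals, which in blood are smaller than the points. The alpha share spans 35.8% to 43.3% in blood and 39.7% to 59.2% in the brain.

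Set against globin, the other 4 genes can be followed as ratios. Per 1000 globin counts, Alas2 had 41.1, 50.9 and 51.9 counts in sham blood and 39.1, 41.2 and 26.6 in stroke blood, and Slc4a1 had 1.29, 1.76 and 1.34 in sham blood and 1.57, 1.55 and 1.03 in stroke blood. Bpgm had 31.4, 30.6 and 23.2 in sham blood and 23.9, 27.3 and 16.8 in stroke blood, and Tent5c 7.47, 6.33 and 6.69 and then 8.05, 8.73 and 5.37. Over the 6 blood libraries these ratios ranged 1.95-fold, 1.71-fold, 1.86-fold and 1.63-fold in the order Alas2, Slc4a1, Bpgm and Tent5c, and globin itself 27.7-fold, but only 2.45-fold without sham blood 1. Stroke blood 3 was lowest for all 4 genes.

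The brain departed from these ratios in different ways for different genes. Alas2 had 0, 206 and 106 counts per 1000 globin counts in stroke brain 1, 2 and 3, Bpgm had 2089.7, 768 and 528, and Tent5c had 27538, 8004 and 5869.7. Bpgm and Tent5c were therefore far above their blood ratios in every brain library, while Alas2 was above them in stroke brain 2 and 3 and had no count in stroke brain 1.

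Brain macrophages were then compared with stroke blood across all genes, to ask whether other red cell genes outside the 8 also differed. In edgeR's quasi-likelihood test a gene was called a DEG when its log2 fold change passed 1 in size and its adjusted p (Benjamini-Hochberg) was under 0.05. Of 43 genes tested in the 5 red cell lists, 21 were lower in the brain and 1 was higher, where 7.86% of all 13189 genes tested were lower and 13.1% higher. The median log2 fold change was -1.07 over the 43 genes and 0.06 over all genes. The 8 genes described above are left out of the red cell counts, since they were chosen with their levels known. The 5 lists were also chosen with earlier results of these data known. Their counts and adjusted p, here and in the comparisons with sham blood, are therefore not an independent check.

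The 2 other globin genes tested, Hbq1a and Hbq1b, were at 2.95 ± 1.56 and 3.71 ± 0.483 CPM in stroke blood and at 0 in every brain library, at least 20.6-fold and 25.8-fold lower. In heme synthesis, 2 of 11 genes fell. Fech, the enzyme that puts iron into heme, went from 211 ± 24.9 to 59.2 ± 5.76 CPM (log2 fold change -1.99, SE 0.159, edgeR adjusted p = 4.74e-05). Slc25a37, or mitoferrin 1, which brings iron into the mitochondrion, went from 86.8 ± 8.27 to 14.7 ± 4.18 CPM (log2 fold change -2.72, SE 0.230, edgeR adjusted p = 6.17e-05), though its exons overlap transcripts of the opposite strand. Alas1, the form of the first enzyme found in all tissues, was at 95.1 ± 9.70 CPM in stroke blood and 168 ± 24.4 CPM in the brain and was not called. The whole list summed to 609, 614 and 546 CPM in stroke blood and 418, 469 and 429 CPM in stroke brain.

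Of 11 genes tested of the membrane and skeleton, 7 fell. Epb42, of the skeleton under the membrane, was at 0 in the brain, at least 26.8-fold lower. Gypc fell from 38.6 ± 1.85 to 17.7 ± 5.57 CPM (log2 fold change -1.29, SE 0.237, edgeR adjusted p = 0.0036), and Epb41 from 113 ± 15.7 to 51.0 ± 3.79 CPM (log2 fold change -1.30, SE 0.162, edgeR adjusted p = 0.000484), with an overlap of antisense exons. Aqp1 and Tmod1 were under 2 CPM in stroke blood, and their calls were lost without any 1 of the 6 libraries, with log2 fold changes of -2.17 to -3.23 and of -1.91 to -2.79.

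Of 10 genes tested of reticulocyte maturation, 8 fell. Trim10 and Tspo2 were at 0 in the brain, at least 93.9-fold and 28.9-fold lower. Ube2o, an enzyme that helps clear ribosomes from the maturing cell, went from 25.6 ± 8.20 to 3.71 ± 1.04 CPM (log2 fold change -2.94, SE 0.337, edgeR adjusted p = 0.000327), and Car2, a carbonic anhydrase, from 67.4 ± 4.72 to 19.8 ± 8.21 CPM (log2 fold change -1.92, SE 0.289, edgeR adjusted p = 0.00133). Bnip3l, Mkrn1 and Prdx2, which many cell types express, fell by 1.19, 1.25 and 1.06 on the log2 scale and stood at 147 ± 12.3, 194 ± 8.43 and 198 ± 9.55 CPM in the brain, and Prdx2 was no longer called without stroke blood 3 (-0.9975). Exons of Mkrn1 and Prdx2 overlap others on the opposite strand.

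The transcription factors gave no common direction. Of 9 tested, Nfe2 fell (log2 fold change -1.48, SE 0.180, edgeR adjusted p = 0.00043), Bcl11a fell (log2 fold change -1.07, SE 0.320, edgeR adjusted p = 0.0317) and Ldb1 rose (log2 fold change 1.81, SE 0.273, edgeR adjusted p = 0.00134). Ldb1 shares exon bases with Pprc1 on the opposite strand, as does Bcl11a with 4930538E20Rik, and Bcl11a was no longer called without stroke blood 2 (-1.08) or 3 (-0.95) or without stroke brain 2 (-0.88) or 3 (-0.91). The number of red cell genes called higher was 3 without stroke brain 1 (Alad, Ermap and Ldb1) and 2 without stroke blood 1 (Ermap and Ldb1), where Alad and Ermap are named after their values were seen.

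**Figure D4:**
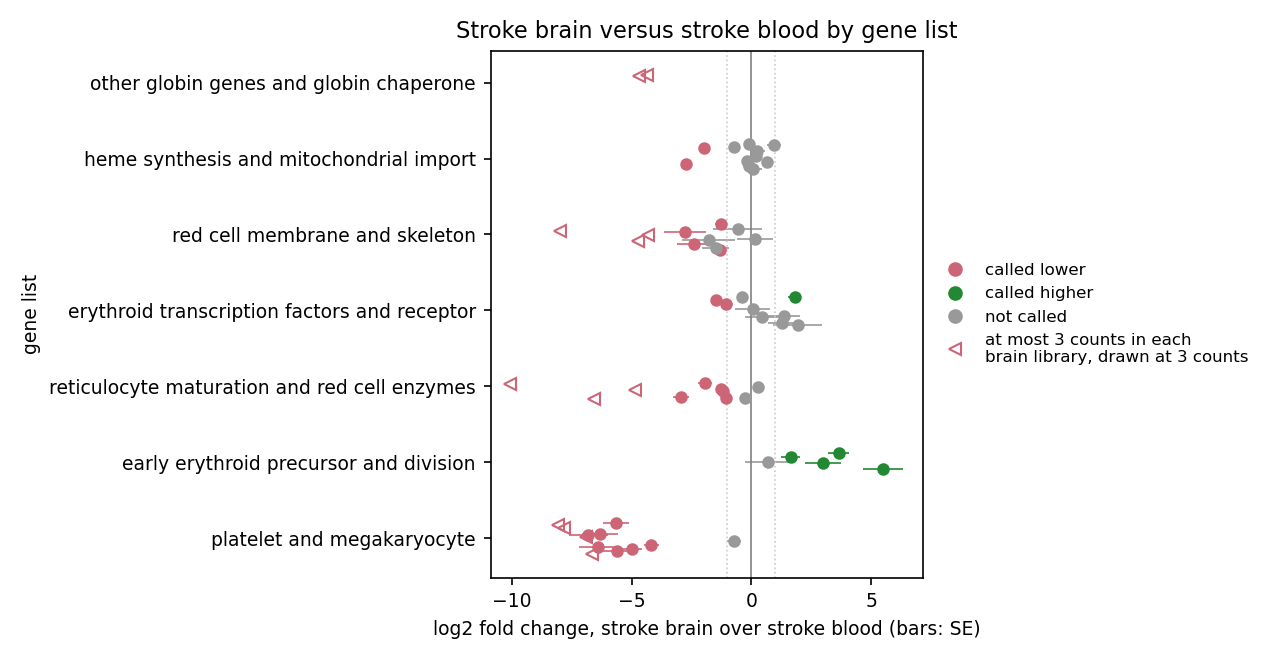
Log2 fold change of stroke brain over stroke blood in edgeR (horizontal axis, bars are SE) for the tested genes of each list (vertical axis), coloured by call; open triangles are genes with at most 3 counts in each brain library, drawn at 3 counts. Of the 43 red cell genes in the first 5 lists 21 are called lower and 1 is called higher, and of the 12 platelet genes 11 are called lower. Of all genes tested 7.86% are called lower and 13.1% higher.

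The readout was named for red cell precursors, and the lists of transcription factors and of early precursor genes were mixed in blood. The 11 transcription factors and receptor summed to between 367 and 528 CPM in the blood libraries, most of it Nfe2, at 244 to 372 CPM, with Lmo2 at 55.8 to 88.9 CPM and Gfi1b at 1.06 to 5.06 CPM. Klf1, the factor that switches on adult beta globin, was at most 0.423 CPM in any blood library, Epor, the erythropoietin receptor, at most 0.540 CPM, and Hemgn at most 1.60 CPM. Gata1 was at 1.99, 4.89 and 8.77 CPM in sham blood and 0.724, 5.98 and 2.64 CPM in stroke blood, and platelets and their precursors express it too. The list of 6 early precursor and division genes summed to between 6.63 and 16.1 CPM in blood, where Top2a reached 7.15 CPM, Mki67 5.36 CPM and Kit 1.19 CPM. Lmo2, Gfi1b, Klf1, Epor, Hemgn and Gata1, like Alas1 above, were picked after their values were seen. These levels do not single out precursors, and the 8 genes are therefore called red cell transcripts here.

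In the brain, 4 of 5 tested genes of that early list were called higher than in stroke blood, where 13.1% of all genes tested were. These were Kit (log2 fold change 5.51, SE 0.833, edgeR adjusted p = 0.00136), Top2a (log2 fold change 3.64, SE 0.434, edgeR adjusted p = 0.00039), Tfrc (log2 fold change 3.00, SE 0.747, edgeR adjusted p = 0.0148) and Mki67 (log2 fold change 1.65, SE 0.393, edgeR adjusted p = 0.0122). Tfrc was no longer called without stroke blood 1 (2.98, edgeR adjusted p = 0.0628). None of these genes is limited to the red cell lineage. In stroke brain 1, 2 and 3 Klf1 was at 0, 0.0442 and 0.370 CPM, Epor at 0.586, 0.575 and 1.94 CPM, above all its blood values, Hemgn at 0, 0.309 and 0 CPM and Gata1 at 1.33, 5.70 and 3.70 CPM. Of the 60 red cell genes outside the 8, 18 had no count in any brain library, against 6 in stroke blood and 6 in sham blood. Of the 18, 5 had no count in blood either (Hba-x, Hbb-bh1, Hbb-bh2, Icam4 and Pklr, named after their values were seen). Among all genes, 18388, 18010 and 18392 had a count in stroke brain 1, 2 and 3, and between 17610 and 18612 in a blood library. The share of all genes with no count in a whole group was not computed.

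Platelet genes moved with the red cell genes between brain and blood as well. The list summed to 39.7, 62.0 and 84.5 CPM in stroke brain 1, 2 and 3. Of its 12 genes 11 were called lower in the brain than in stroke blood, where 7.86% of all genes tested were. The gene not called was Pf4, the most abundant of them in the brain, at 35.0, 56.5 and 78.7 CPM against 72.9, 84.2 and 95.5 CPM in stroke blood. Its mean was lower in the brain too, and Pf4 was called lower without stroke brain 3. Gp5 had no count in any brain library. Microglial genes moved the other way, with 6 of 6 called higher in the brain, where 13.1% of all genes tested were. They summed to 979.5, 1499 and 2663 CPM there against 163, 201 and 134 CPM in stroke blood. The 8 monocyte and macrophage genes, led by Lyz2, summed to 45792, 48694 and 50891 CPM in the brain and 98225, 108418 and 97172 CPM in stroke blood. The part of platelets and microglia in the lower red cell RNA of the brain was not tested.

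The comparison of stroke brain with sham blood gave a similar picture that depended on sham blood 1. Of 38 red cell genes tested, 12 were lower in the brain and 0 higher in edgeR, where 3.67% of all 13020 genes were lower and 9.75% higher; DESeq2 called 1 higher, and 19 of the 38 had an unadjusted p below 0.05 in edgeR, as did 4464 of all genes. The median log2 fold change was -0.67 against 0.01 over all genes, and -1.48 against 0.02 without sham blood 1, each unchanged with genes at 0 in the brain at their bound. The 8 genes described above are again left out of the red cell counts. Without sham blood 1, 24 of 48 red cell genes were lower, where 3.3% of all 13798 genes were, and all 12 earlier calls were among the 24. The count was 7 without sham blood 2, 6 without sham blood 3, 7 without stroke brain 2 and 7 without stroke brain 3, and 1 gene was called higher without sham blood 2 (Ldb1) or without stroke brain 1 (Ermap), both named after their values were seen. Over all genes there were 1748 calls, and 1146 without sham blood 3. With all libraries, edgeR also called 11 of 12 platelet genes lower in the brain than in sham blood. It called 4 of 6 B cell genes lower (Cd79a, Cd79b, Ms4a1 and Pax5), and that list had a median log2 fold change of -1.82. The part of platelets and B cells in this comparison was not tested.

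Among the 12 were Fech, from 65.1, 446 and 380.2 CPM in sham blood to 58.2, 54.1 and 65.5 CPM in the brain (log2 fold change -2.44, SE 0.594, edgeR adjusted p = 0.0261), and Slc25a37, from 15.2, 165 and 151 CPM to 19.5, 11.7 and 12.9 CPM (log2 fold change -3.03, SE 0.751, edgeR adjusted p = 0.0277). Sham blood 1 was close to the brain for both of these genes, and both calls were lost without sham blood 2 (-2.05 and -2.64), sham blood 3 (-2.21 and -2.71) or stroke brain 1 (-2.42 and -3.27), 2 (-2.39 and -2.90) or 3 (-2.53 and -2.95). Without sham blood 1 the log2 fold changes were -2.91 for Fech (SE 0.151, edgeR adjusted p = 0.000223) and -3.54 for Slc25a37 (SE 0.241, edgeR adjusted p = 0.00065). Among the 12 genes added without this library were Add2, Car2, Epb41, Epb42, Kel, Prdx2, Rhag, Sptb, Tmod1, Trim58 and Tspo2.

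Stroke blood was compared with sham blood to see whether stroke itself went with a change in circulating red cell RNA. No red cell gene outside the 8 was called in either direction in edgeR among 42 tested; over all 12664 genes 1 was called (0.0079%), the gene Serpinb10. At an unadjusted p below 0.05 there was 1 red cell gene, Bcl11a, named after its value was seen, against 1581 of all genes. DESeq2 called 0 red cell genes and 127 of all genes. Serpinb10, also named after its value was seen, was at 45.1, 42.6 and 55.9 CPM in sham blood and 184, 154 and 164 CPM in stroke blood (log2 fold change 1.84, SE 0.172, edgeR adjusted p = 0.0231). The count over all genes was 16 without sham blood 1, 2 without sham blood 3 and 0 without sham blood 2 or any 1 stroke blood library. The median log2 fold change was -0.29 over the 42 genes, 31 of which were negative. Over all 12664 genes it was -0.03, and 6750 were negative.

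For all 8 genes, stroke blood lay between sham blood 1 and the other two sham libraries, so the groups overlapped. The log2 ratio of mean CPM, stroke over sham, was -0.45 for Hba-a1, -0.19 for Hba-a2, -0.59 for Hbb-bs, -0.21 for Hbb-bt, -1.02 for Alas2, -0.67 for Slc4a1, -0.76 for Bpgm and -0.32 for Tent5c. Sham blood itself ranged so widely that these ratios were small beside its SD, for example 6150.3 ± 5227 CPM for Hba-a1 in sham blood against 4497 ± 799 CPM in stroke blood. The sign was not fixed either, since 8 of 72 ratios of these genes under other scalings or without 1 library were above 0. Without sham blood 2 the ratio was above 0 for 5 of the 8 genes, at 0.32 for Hba-a2, 0.23 for Hbb-bt, 0.17 for Hba-a1, 0.11 for Tent5c and 0.02 for Slc4a1, and was -0.08 for Bpgm, -0.20 for Hbb-bs and -0.56 for Alas2. The other 3 were Hba-a2, Hbb-bt and Tent5c without sham blood 3, at 0.06, 0.13 and 0.02.

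Without sham blood 1, stroke blood stood at 33.4% of sham blood for Alas2, 40.2% for Bpgm, 42.6% for Slc4a1, 45.2% for Hbb-bs, 49.7% for Hba-a1, 54.6% for Tent5c, 59.0% for Hbb-bt and 59.8% for Hba-a2. The 3 stroke libraries were then below both remaining sham libraries for each of the 8 genes, as they were for 20.6% of all genes. In this fit edgeR called 1 of 47 red cell genes outside the 8 lower, where 0.114% of all 13180 genes were. At an unadjusted p below 0.05 there were 16 of the 47, against 2011 of all genes. The median log2 fold change was -0.46 over the 47 genes, 42 of which were negative. Over all 13180 genes it was -0.03, and 6963 were negative. The platelet list, at 419, 510.1 and 397 CPM in stroke blood against 596 and 855 CPM, also had lower sums in stroke blood. The 6 B cell genes, with no gene at 0, summed to 681, 725 and 591 CPM in stroke blood against 978 and 677 CPM, most of it Ighm (573, 661 and 515 against 739 and 454 CPM), and had a median log2 fold change of -1.16 with all libraries. The 9 neutrophil genes summed to 409, 759 and 549 CPM in stroke blood against 836 and 1760 CPM. Up to 5 of them were at 0 in a library, and the 8 tested had a median log2 fold change of -1.08 with all libraries. The part of platelets, B cells and neutrophils in the difference was not tested.

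Over the 6 blood libraries the 8 genes ran almost in parallel. On the scale of log2(CPM + 1), each gene had a Pearson r of 0.988 to 0.996 with the mean of the other 7, and 0.889 to 0.975 without sham blood 1. These correlations describe 6 libraries, most of whose spread comes from sham blood 1, and carry no test.

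Among the 10 genes most like the mean profile of the 8, out of 8755 genes with a mean of at least 5 CPM, were Slc25a37 (r = 0.998), Itga6 (0.995), Treml1 (0.989), Cpd (0.986), Asb1 (0.986), Esam (0.984), Fam213a (0.983), Car2 (0.983) and Gp1bb (0.982). Slc25a37 and Car2 are in the red cell lists, and Treml1 and Gp1bb are platelet genes. Without sham blood 1 the r of these genes was between 0.810 and 0.987, and without sham blood 1 and 2, the libraries farthest from the median, between 0.609 for Fam213a and 0.989 for Treml1. By Spearman's rho 49 genes tied at a rho of 1, of which 2, Itga6 and Asb1, were among the 10. Itga6 and Cpd parted from the 8 genes in the brain, where they were at 41.2 ± 11.3 and 36.5 ± 2.39 CPM, above all their blood values of at most 12.8 and 14.3 CPM.

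**Figure D5:**
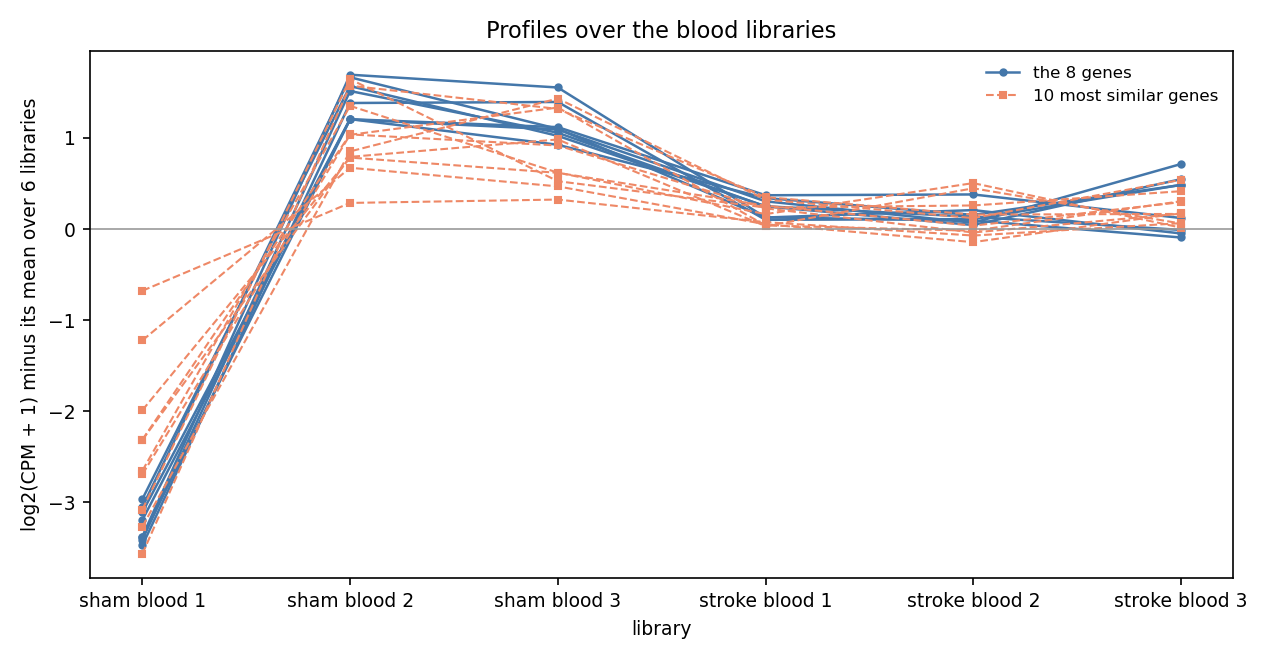
Profile of the 8 genes (solid) and of the 10 genes most like them (dashed) over the 6 blood libraries (horizontal axis), as log2(CPM + 1) minus the mean of the gene over these libraries (vertical axis); the lines only join the values of 1 gene. Every profile is lowest in sham blood 1.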

How the data were processed

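RNA of sorted monocytes/macrophages was sequenced as paired-end libraries on a NextSeq after SMART-Seq HT and Nextera XT preparation. Reads were mapped to GRCm38 by the authors with HISAT2, and the analysis starts from their deposited table of raw HTSeq counts per Ensembl gene. Tool versions, annotation release and strand setting are not given in the sources used here. Groups and replicate numbers come from the sample labels.

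Gene symbols, positions and exon lengths were taken from GENCODE M21, and promoters from RefSeq GRCm38.p6. Of 53801 identifiers 53620 had a symbol and 52105 the same position in GENCODE M21. Of 140 genes in 16 lists 139 were matched; Ahsp was not. Entries for 7 of the 8 promoters were found.

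Each pair of groups was fitted alone across all genes with edgeR 4.0.16 in R 4.3.3 (TMM, filterByExpr, quasi-likelihood F test, Benjamini-Hochberg adjustment over all genes tested). SE is the size of the log2 fold change over the square root of F. DESeq2 1.42.0 was an alternative; the others were RLE scaling, library size only, scaling without globin counts, no filter on low counts, no fold change threshold, all 9 libraries in one fit, the replicate number as a block and each library left out in turn. The separate fits without sham blood 1, the 10-fold threshold used for this library and the smaller sets of libraries in the correlations, and the shares of all genes that lie below other libraries, were chosen after seeing the data. Within groups, libraries varied beyond counting error, with chi-square over degrees of freedom of 23.9 to 136. The edgeR step was tested on simulated data. Tables and figures used matplotlib 3.10.9, pandas 2.3.3, numpy 2.4.6 and scipy 1.17.1 under Python 3.11.15.

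The members and lists were chosen with earlier results of these data known. Named were all 8 genes, the genes of each list that were called or else its most abundant ones (any gene of a list of 8 or fewer), and the 10 genes with the highest Pearson r with the mean z-scored log2(CPM + 1) profile of the 8 over the blood libraries; genes outside this rule are said to be so where they appear.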

Additional observations from a re-analysis of the deposited data

How the results depend on the processing

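Red cell genes outside the 8 were called lower in the brain than in stroke blood 21 times in the fit reported, and 17 to 22 times under the other settings with all libraries. They were called higher 1 time, against 2 in DESeq2, 2 with library size only, 2 with no filter on low counts and 3 with no fold change threshold. Against sham blood the count lower was 12, with 18 in DESeq2, 18 with no filter and 17 with all 9 libraries in one fit; the count higher was 0, with 1 in DESeq2 and 1 with no filter. Over all genes, stroke against sham blood gave 1 call, 127 in DESeq2 and 160 with no filter. Library size only moved the median log2 fold change of all genes by 0.15 for brain against stroke blood and by 0.12 for brain against sham blood. The cause of these differences was not tested.

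Leaving out 1 library gave 17 to 20 lower, 1 to 3 higher and 2258 to 3014 calls over all genes for brain against stroke blood, 6 to 24, 0 to 1 and 1146 to 1883 for brain against sham blood, and 0 to 1, 0 to 0 and 0 to 16 for stroke against sham blood. Of 204 values of called red cell genes without 1 library, 162 passed the thresholds and 42 did not, and of 238 under the other settings 226 did and 12 did not; none changed direction. All 132 log2 ratios of the 8 genes without 1 library, and all 66 under other scalings, stayed within 1 SD of the value reported, a wide margin where sham blood 1 is included.

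Same-numbered libraries shared only a number: the correlations of their deviations from the group means lay between -0.0844 and 0.101 over 10190 genes. With the replicate block, 20 red cell genes were lower and 1 higher in the brain than in stroke blood, 10 lower and 0 higher than in sham blood, and 0 differed between stroke and sham blood, with 2634, 1571 and 1 calls over all genes. The 1 call between stroke and sham blood is a lower one with the block and a higher one, Serpinb10, without it.

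Depth limits genes at 0 in the brain to lower bounds, and each brain library pools 5 mice, so the spread between single mice is not seen there. With 3 libraries a group, 1 library decides whether stroke and sham blood overlap. Shared stretches of the globin copies and antisense exons leave single-gene values uncertain, while the direction does not rest on how the copies are divided. Protein levels, red cell counts and other days were not analysed here.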

Other observations

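Genes with which macrophages handle heme and iron were measured beside the red cell transcripts, in a list of 7. It summed to 5456, 4640.3 and 4779 CPM in sham blood 1, 2 and 3, 4523, 4395 and 5062 CPM in stroke blood and 10089, 10663 and 9376 CPM in stroke brain, most of it Fth1, the heavy chain of ferritin. In edgeR 3 of the 7 were higher in the brain than in stroke blood, where 13.1% of all genes were, and 2 (Cd163 and Fth1) were higher than in sham blood, where 9.75% were. Fth1 rose from 2989 ± 305 to 7710.5 ± 619 CPM (log2 fold change 1.21, SE 0.163, edgeR adjusted p = 0.000734). Slc40a1, or ferroportin, the iron exporter, went from 0, 3.11 and 0.756 CPM in stroke blood to 12.2, 41.8 and 46.5 CPM in the brain (log2 fold change 4.54, SE 0.955, edgeR adjusted p = 0.00687). Cd163, a receptor for hemoglobin bound to haptoglobin, went from 1.93, 3.94 and 2.75 CPM to 7.04, 18.1 and 21.3 CPM (log2 fold change 2.28, SE 0.458, edgeR adjusted p = 0.00552). Hmox1, the enzyme that breaks heme down, was at 148 ± 8.10 CPM in stroke blood and 191 ± 30.4 CPM in the brain and was not called.

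Sham blood 1 was searched across all genes for others like the 8. Among 8769 genes with a mean of at least 5 CPM in the other 5 blood libraries, 34 (0.388%) were at least 10-fold below the lowest of these 5 in sham blood 1, and 0 were at least 10-fold above the highest, a threshold chosen after seeing the data and with no test. Of the 34, 5 were among the 8 genes (Hba-a1, Hbb-bs, Hbb-bt, Slc4a1 and Tent5c), 5 were in the other red cell lists, Car2, Trim10 and Tspo2 among them, 9 were in the platelet list and 15 in none of the lists. Examples of the 15, picked after their values were seen, are Ctla2a at 3.02 CPM against a mean of 78.8 CPM in the other 5, Clu at 2.87 against 78.0 CPM, Myl9 at 4.96 against 73.9 CPM and Vwf at 0.389 against 27.8 CPM.

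Other lists of cell types were counted once. Between brain and stroke blood, where 7.86% of all genes were lower and 13.1% higher, edgeR called 2 of 3 tested basophil, mast cell and eosinophil genes higher, 5 of 7 neutrophil genes higher and 1 lower, 2 of 8 T and NK cell genes higher, 2 of 8 monocyte and macrophage genes lower and 1 higher, and 1 of 3 tested genes of the sort gate higher, Itgax. The basophil, mast cell and eosinophil count was 1 without stroke blood 1, and the T and NK cell count was 4 without stroke blood 1 and 1 without stroke blood 2, stroke blood 3 or stroke brain 2. The 6 B cell genes summed to 681, 725 and 591 CPM in stroke blood and 483, 460.2 and 731 CPM in stroke brain.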
